A study of Mus musculus with 36 samples.

Results

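The regions described here are the accessible chromatin of 43 genes that drive the cell cycle and DNA replication, measured by ATAC-seq in mouse spleen CD4 T cells of 12 groups. ATAC-seq counts the places where the Tn5 transposase could insert into DNA, so a high read count over a region (a peak) marks open chromatin. A peak was given to a gene of the list when its midpoint lay nearest to one of that gene's protein-coding transcription start sites (TSS) in the mouse GENCODE annotation of GRCm39, and was called a promoter peak within 1 kb of that TSS and a distal peak beyond it. Of 71509 peaks in the deposited table, 187 belonged to the list, 44 of 13075 promoter peaks and 143 of 58434 distal peaks. A peak was found for 41 of the 43 genes. Rrm2, a subunit of ribonucleotide reductase, had none, and the accessible region beside the TSS of Aurka, a mitotic kinase, lay nearer to the TSS of another gene. E2f2, a transcription factor of the E2F family, had 6 distal peaks and no promoter peak by this rule. The TSS of E2f2 lay inside a wide peak at chr4:135898941-135903000, whose midpoint was 1.39 kb away, so that peak counted as distal.

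The study asked how 2 heterochromatin proteins, HP1a and HP1g, shape the response of conventional CD4 T cells (Tconv) to suppression by regulatory T cells (Treg). For each protein, libraries were made from wild-type (WT) and knockout (KO) naive CD4 T cells, from Tconv recovered from a recipient mouse, and from Tconv transferred together with Treg, with 3 libraries in each of the 12 groups and 36 in all. HP1a KO mice lacked the gene in every cell, after germline deletion of a conditional allele with CMV-cre, and their WT controls were Hp1a+/+ littermates. HP1g KO mice carried floxed alleles deleted by Cd4-cre, hence only in cells that pass through Cd4 expression, and their WT controls were floxed littermates without cre. Both lines were kept on a mixed 129/Sv and C57BL/6 background, and donors were 6 to 12 weeks old. Naive cells were taken directly from the spleen. Tconv were sorted as TCR Vbeta6+ donor cells 3 weeks after transfer into lethally irradiated hosts (C57BL/6 J or CD45.1+ B6) grafted with marrow of C57BL/6 J and B6D2F1 mice, so the naive and Tconv groups differ in antigen encounter, in the host and in the sort together. The Treg had been expanded in culture from Foxp3-Thy1.1 reporter mice and were gated out as Thy1.1+ cells. The libraries were not stated to come from separate animals, so the p-values measure only the spread between these libraries.

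Cell cycle entry is set by D-type cyclins (Ccnd2, Ccnd3) with Cdk4 and Cdk6, which release the E2F factors that switch on genes for DNA replication. The MCM helicase is loaded on replication origins by Cdc6 and Cdt1, and mitosis then needs B-type cyclins with Cdk1, together with kinases and spindle proteins such as Plk1, Aurkb and Kif11. Naive T cells are resting, and the inhibitors p27 (Cdkn1b), p21 (Cdkn1a) and p18 (Cdkn2c) restrain their kinases. An open promoter shows that a gene can be read and is no measure of its transcription.

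Reads in peaks ranged from 1486053 to 96806542 per library among the 33 libraries that the study kept, with a median of 60536679. It left out 3 HP1a libraries of 3199447 to 7124402 reads, all of Tconv with Treg, so that the HP1a KO group with Treg held 1 library in the fit and the HP1a WT group with Treg held 2, of 12691169 and 1486053 reads. Promoter peaks of CD4 T cell markers (Cd4, Cd3e, Cd3d, Cd3g and Thy1 of 7 listed, since Cd2 and Cd5 had none) summed to 109 to 365 CPM (counts per 1000000 reads in peaks), lowest in HP1a WT Tconv with Treg (109 to 195 CPM). The Treg markers Foxp3 and Ikzf2 summed to 33.5 to 112 CPM. The B cell list, with promoter peaks at Pax5 and Ebf1, summed to 6.4 to 22.8 CPM and was highest in HP1a WT Tconv with Treg. The myeloid list, with peaks at Itgam, Cd14 and Cebpa and none at Csf1r, Lyz2 or Adgre1, summed to 16.4 to 66.0 CPM. Cd8b1 gave 27.0 to 35.4 CPM in naive cells and 2.50 to 11.4 CPM in Tconv, erythroid Gata1 0.40 to 4.47 CPM, and no promoter peak was assigned to the 3 natural killer genes. The promoter peaks of the targeted genes Cbx5 (HP1a, 8.33 to 20.3 CPM) and Cbx3 (HP1g, 82.2 to 260 CPM) overlapped in range between KO and WT, and such a peak does not test the deletion. In bulk libraries, a lower share of cells with an open site cannot be told apart from less opening in each cell.

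Elements known from cell cycle control were searched at the start of these genes. The 200 bases before the TSS are shown for 5 members, in the direction of transcription in GRCm39, with the letters of 3 motifs in capitals on either strand. E2F sites, bound by E2F factors, were searched as TTTCCCGC, TTTCGCGC, TTTGCCGC and TTTGGCGC. CHR elements, known from genes that peak in mitosis, were searched as TTTGAA and TTCGAA, and CCAAT boxes, bound by NF-Y, as CCAAT. The first 3 sequences belong to subunits of the MCM helicase, at chr8:75835940-75836139 (plus strand), chr1:128287453-128287652 (minus strand) and chr5:138170078-138170277 (minus strand), and hold E2F sites. The last 2 belong to Ccnb2, a mitotic cyclin, at chr9:70328875-70329074 (minus strand), and Top2a, the topoisomerase of dividing cells, at chr11:98915042-98915241 (minus strand), and hold CHR elements.
Mcm5: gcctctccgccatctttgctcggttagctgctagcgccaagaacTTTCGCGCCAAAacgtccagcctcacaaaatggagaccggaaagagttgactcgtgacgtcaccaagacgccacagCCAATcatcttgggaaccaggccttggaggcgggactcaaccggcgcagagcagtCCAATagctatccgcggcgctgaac
Mcm6: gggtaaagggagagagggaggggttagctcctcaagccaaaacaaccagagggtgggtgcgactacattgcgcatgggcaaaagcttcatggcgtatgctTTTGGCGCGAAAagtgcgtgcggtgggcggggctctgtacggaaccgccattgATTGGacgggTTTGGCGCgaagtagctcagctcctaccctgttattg
Mcm7: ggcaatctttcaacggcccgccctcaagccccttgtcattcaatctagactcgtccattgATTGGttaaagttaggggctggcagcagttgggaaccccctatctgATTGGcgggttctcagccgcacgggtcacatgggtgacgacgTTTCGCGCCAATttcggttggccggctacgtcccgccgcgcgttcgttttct
Ccnb2: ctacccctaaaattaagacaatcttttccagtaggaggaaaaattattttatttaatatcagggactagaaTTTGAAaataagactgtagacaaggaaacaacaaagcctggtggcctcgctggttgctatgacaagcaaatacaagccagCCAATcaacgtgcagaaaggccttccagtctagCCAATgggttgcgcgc
Top2a: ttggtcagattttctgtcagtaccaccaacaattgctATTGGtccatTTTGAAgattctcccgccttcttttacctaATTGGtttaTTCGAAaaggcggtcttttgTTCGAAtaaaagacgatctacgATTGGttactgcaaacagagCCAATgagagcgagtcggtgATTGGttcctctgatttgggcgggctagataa

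In windows from 250 bases before to 50 after the TSS, an E2F site was present in 11 of 40 members with a promoter peak (27.5%), against 3.79% of 11260 genes with a promoter peak. Those 11 were Cdc6, Cdt1, Cdk2, E2f1, E2f3, E2f7, Mcm3, Mcm4, Mcm5, Mcm6 and Mcm7. A CHR element was present in 14 members (35%, against 13.9%), which were Aurkb, Bub1, Bub1b, Ccnb2, Cdc20, Cdk1, Kif11, Plk1 and Top2a, of mitosis, and Ccnd3, Cdk6, E2f3, Mcm2 and Mcm7. The mitotic members Birc5, Ccnb1, Ccna2 and Mki67 had none in this window, which for Mki67 was taken at its intronic promoter peak. A CCAAT box was present in 23 members (57.5%, against 36.4%). Some sites overlap, as in Mcm7, where the last base of the E2F site is the first base of a CCAAT box. The letters alone show no binding, and these shares were not tested.

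In naive cells most members already had an open promoter. Read density (CPM per kb of peak) at the 44 promoter peaks had a median of 24.2 in HP1a WT naive cells, against 19.2 over all promoter peaks, and of 19.6 against 15.8 in HP1g WT naive cells. Pcna, the sliding clamp of the replication fork (60.2 CPM per kb), Mcm4 (59.0) and E2f1 (51.2) had the most open promoters in HP1a WT naive cells. At the other end were an intronic promoter peak of Mki67, the proliferation marker (0.68 CPM per kb), one of Cdkn1a (1.15) and that of Tyms, thymidylate synthase (2.86). The licensing genes Cdc6 (16.3), Mcm6 (18.9), Cdt1 (27.8), Mcm2 (37.7) and Mcm5 (36.6) lay between these ends.

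Tconv were first compared with naive cells of the same genotype. A peak was called when the Benjamini-Hochberg adjusted p of edgeR's quasi-likelihood test over all peaks was below 0.05 and the log2 fold change was beyond 1 in size. At promoters, 3 of 44 members' peaks were called higher and 0 lower in each of the 4 comparisons (HP1a WT, HP1a KO, HP1g WT and HP1g KO). Over all promoter peaks, 9.73% were called higher and 5.97% lower in HP1a WT, 9.24% and 6.27% in HP1a KO, 10% and 8.87% in HP1g WT, and 8.81% and 7.36% in HP1g KO. Over all peaks, promoter and distal together, 25.6% were called higher and 13.4% lower in HP1a WT, 23.2% and 16.3% in HP1a KO, 25.2% and 21.9% in HP1g WT, and 22.4% and 19.9% in HP1g KO. The same 3 peaks were called in all 4 comparisons, 6.82% of the members' promoter peaks against 6.77% of all promoter peaks. No call in any comparison was made at 41 of the 44 (93.2%), against 77.2% of all promoter peaks.

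The 3 promoter peaks were those that were nearly closed in naive cells. The intronic Mki67 peak at chr7:135311881-135312360, 0.52 kb from a TSS, measured -1.86, -1.01 and -1.53 log2 CPM in HP1a WT naive cells and 2.12, 2.17 and 1.01 in HP1a WT Tconv. In HP1g WT it measured -1.77, -1.96 and -2.02 in naive cells and 1.48, 1.35 and 1.14 in Tconv. Naive and Tconv values did not overlap, and the log2 fold change was 3.42 (SE 0.41, adjusted p = 2.49e-06) in HP1a WT, 3.0 in HP1a KO, 3.43 in HP1g WT and 2.61 in HP1g KO. The main Mki67 promoter peak at chr7:135316151-135319360 was open in naive cells (5.93, 5.89 and 5.90 log2 CPM in HP1a WT) and measured 6.12, 5.96 and 6.10 in Tconv, a log2 fold change of 0.12 (SE 0.15, adjusted p = 0.499). Its read density rose from 17.66 to 22.61 CPM per kb in HP1a KO, 14.93 to 19.84 in HP1g WT and 15.11 to 20.15 in HP1g KO. It was not called in any of the 4 comparisons. Cdkn1a showed the same arrangement. Its peak at chr17:29315711-29317170 had log2 fold changes of 2.45, 1.81, 2.23 and 1.5 in HP1a WT, HP1a KO, HP1g WT and HP1g KO, while the peak over its first TSS at chr17:29311971-29315500 had 0.34, 0.46, 0.98 and 0.75, none beyond 1 and with an adjusted p below 0.05 in HP1g but not in HP1a (0.141 in WT and 0.0521 in KO). The single Tyms promoter peak at chr5:30276651-30278920 measured 2.61, 2.80 and 2.72 log2 CPM in HP1a WT naive cells and 4.18, 4.02 and 4.02 in Tconv. Its log2 fold changes were 1.34 (SE 0.17), 1.16, 1.21 and 1.16 in the same order, so that Tconv lay above naive cells in every library of both lines.

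By the adjusted p alone, without the limit on the fold change, 5 of the 44 promoter peaks were higher and 7 lower in HP1a WT (11.4% and 15.9%, against 12.4% and 33.1% of all promoter peaks), and 6 and 2 in HP1a KO (13.6% and 4.55%, against 12.2% and 18.4%). In HP1g WT 24 were higher and 2 lower (54.5% and 4.55%, against 29.7% and 18.3%), and in HP1g KO 19 and 2 (43.2% and 4.55%, against 25% and 21.4%). A few promoters passed the adjusted p in all 4 comparisons without reaching a log2 fold change of 1. E2f8, an E2F repressor of replication genes, had values of 0.62 (SE 0.13) and 0.66 in HP1a WT and KO and of 0.97 in both HP1g genotypes. Plk1 had values of 0.83 (SE 0.16), 0.73, 0.83 and 0.76. The promoter of Cdkn1b, whose product p27 holds T cells in quiescence, went the other way, with -0.68 (SE 0.16), -0.58, -0.49 and -0.63. Over the 44 promoter peaks the median log2 fold change was -0.20 in HP1a WT and -0.12 in HP1a KO, against -0.29 and -0.18 over all promoter peaks, and 0.22 in HP1g WT and 0.13 in HP1g KO, against 0.08 and 0.03. The HP1a medians changed sign with the scaling, and became 0.05 in WT and 0.04 in KO when libraries were scaled by size alone, and 0.15 and 0.07 with loess offsets on mean abundance. Scaling by size alone moved the median over all peaks of HP1a WT from -0.01 to 0.24, and the members' calls there from 59 higher and 9 lower to 69 and 3. The 9 licensing and helicase promoters (Mcm2 to Mcm7, Mcm10, Cdc6 and Cdt1) had a median of -0.30 in HP1a WT and 0.04 in HP1g WT, and 0 of the 9 were called in any of the 4 comparisons.

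**Figure D1:**
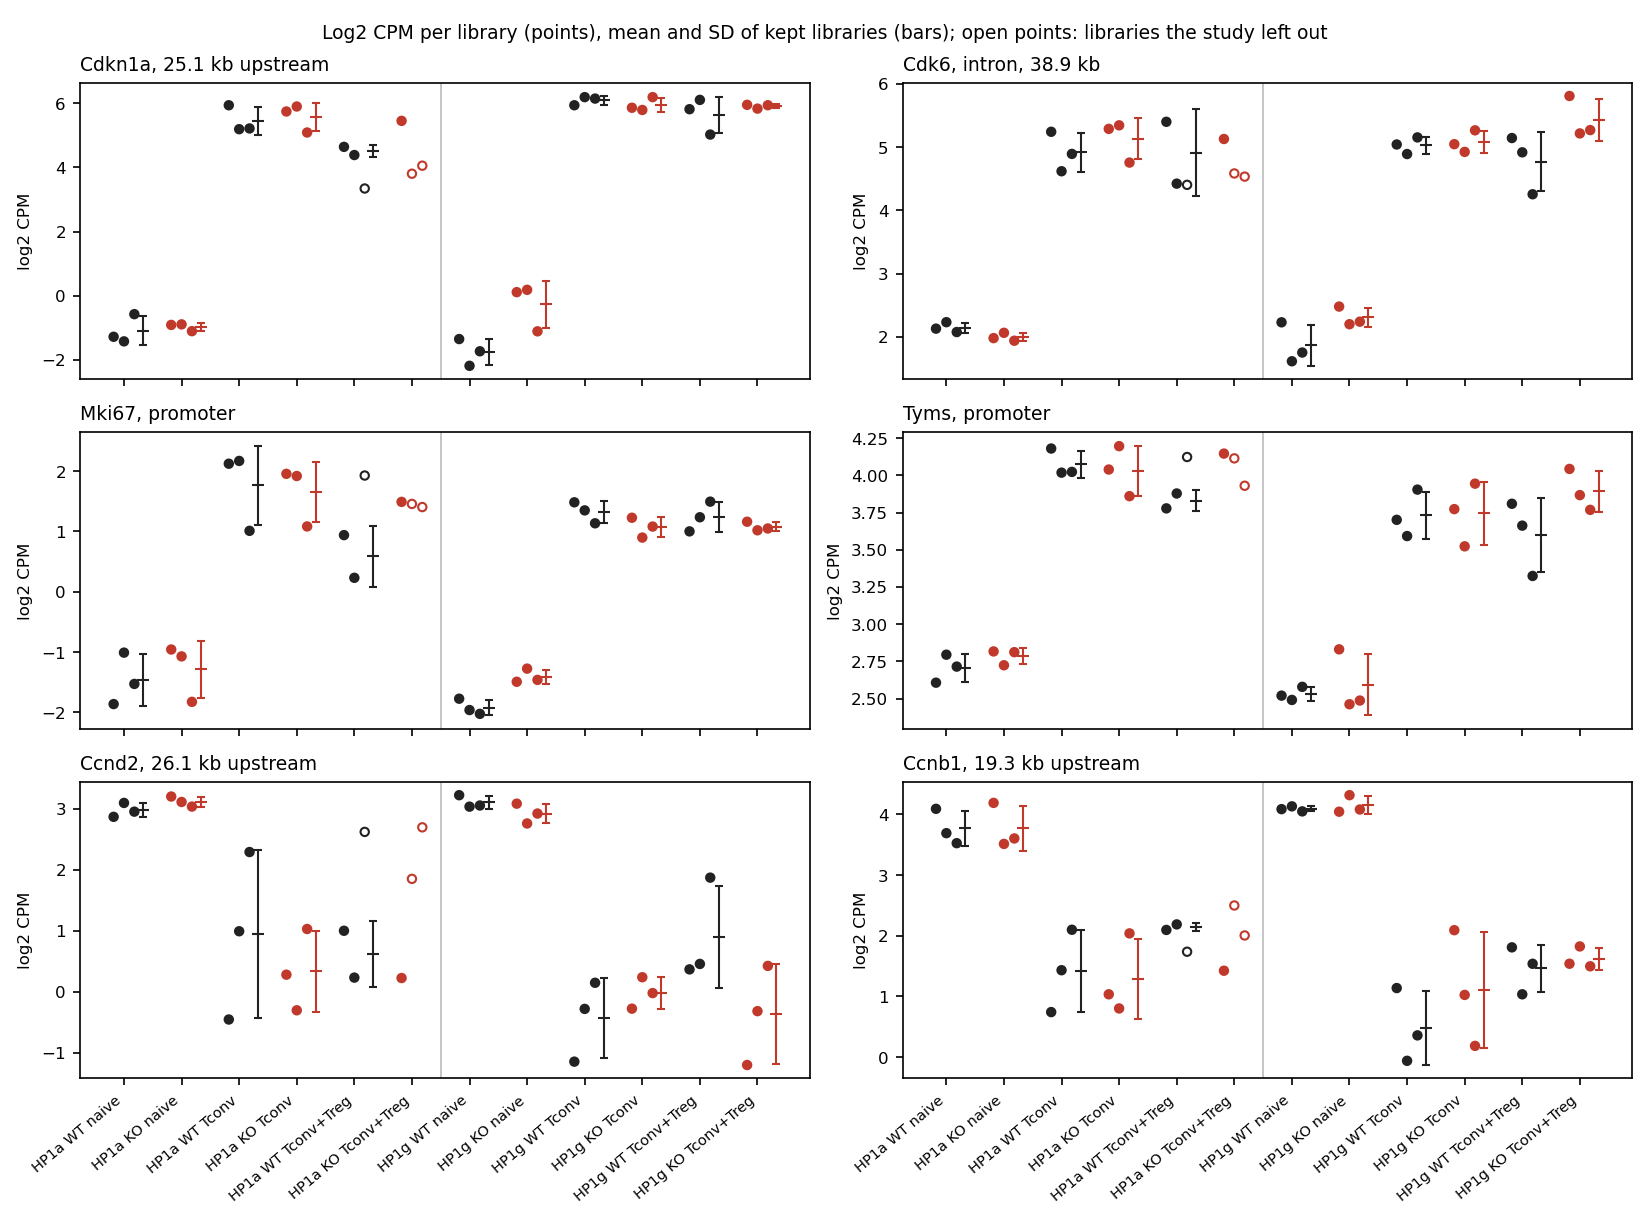
Log2 CPM (vertical axis) of every library at 6 member peaks, 1 panel each, by group (horizontal axis), with points for libraries (black WT, red KO, open for the 3 libraries that the study left out) and bars for the mean and SD of the kept libraries. Naive libraries lie below Tconv libraries at the Cdkn1a, Cdk6, Mki67 and Tyms peaks and above them at the Ccnd2 and Ccnb1 peaks, with and without HP1a or HP1g.

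Distal peaks made up most of the calls. Of 143 distal peaks, 56 were called higher and 9 lower in HP1a WT (39.2% and 6.29%, against 29.2% and 15.1% of all distal peaks), 58 and 11 in HP1a KO (against 26.3% and 18.5%), 60 and 16 in HP1g WT (against 28.6% and 24.8%), and 56 and 10 in HP1g KO (against 25.4% and 22.8%). The same 50 peaks were called higher in all 4 comparisons (35%, against 20.4% of all distal peaks) and 7 were called lower in all 4 (4.9%, against 12.6%). Cdk6 alone held 22 of the 143, and over the other 121 distal peaks 31 were higher in all 4 comparisons (25.6%). Without Cdk6 the peaks called higher were 37 in HP1a WT (30.6%), 39 in HP1a KO (32.2%), 40 in HP1g WT (33.1%) and 36 in HP1g KO (29.8%), nearer to the shares of all distal peaks. Those called lower were 7.44%, 9.09%, 13.2% and 8.26% in the same order, below the shares of all distal peaks given above. Lower in all 4 comparisons were 5.79% without Cdk6, against 12.6%. No member's peak was called in opposite directions. The median log2 fold change of the members' distal peaks was 0.73, 0.69, 0.75 and 0.82 in HP1a WT, HP1a KO, HP1g WT and HP1g KO, against 0.15, 0.07, 0.08 and 0.08 over all distal peaks. Of the B cell and myeloid markers with a promoter peak, Cebpa measured 2.98 to 6.5 CPM in naive libraries and 11.4 to 27.4 CPM in Tconv, and Pax5 1.9 to 3.85 CPM and 4.27 to 7.3 CPM, both without overlap, while Ebf1 (3.88 to 7.07 and 3.93 to 9.0), Cd14 (7.28 to 12.5 and 6.97 to 16.1) and Itgam (3.69 to 7.09 and 1.31 to 4.02) overlapped. Their part in the results was not tested. These 4 comparisons are of separate libraries, whereas peaks of 1 gene share a locus and are not independent. The distal peaks lay a median of 15.2 kb from the TSS (range 1.19 to 539 kb), 25 of them beyond 50 kb, and 65 were in introns, 66 between genes and 12 in exons. When non-coding genes were also allowed as the nearest TSS, 102 of the 187 peaks stayed with the list and the calls in HP1g WT went from 79 to 33.

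**Figure D2:**
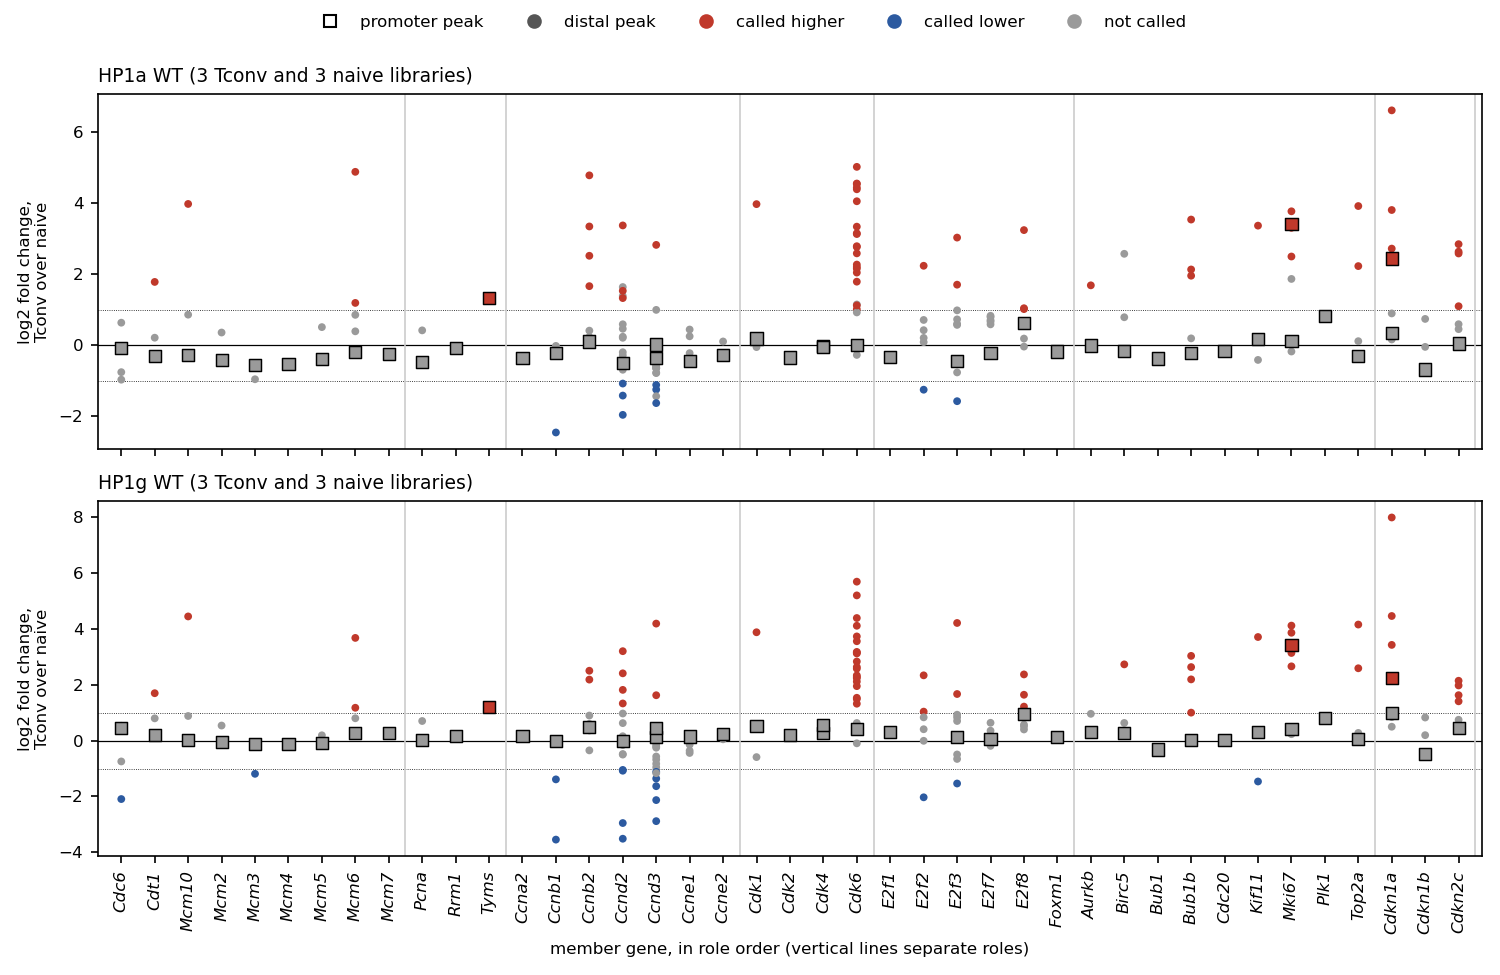
Log2 fold change of Tconv over naive cells (vertical axis) for every member peak, by gene in role order (horizontal axis), in HP1a WT (top) and HP1g WT (bottom), with squares for promoter peaks, circles for distal peaks and colour for the call. Promoter squares lie mostly between -1 and 1, while most Cdk6 circles lie above 1 and Ccnd2 and Ccnd3 circles lie on both sides of 0.

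Among the kinases, Cdk6, the partner of D-type cyclins, held 19 of the 50 peaks, out of 22 distal peaks at its locus. The wide intronic Cdk6 peak at chr5:3431291-3434430, 38.9 kb from the TSS, measured 2.13, 2.23 and 2.08 log2 CPM in HP1a WT naive cells and 5.24, 4.62 and 4.89 in Tconv. In HP1g WT it measured 2.23, 1.62 and 1.75 in naive cells and 5.04, 4.89 and 5.16 in Tconv. Every Tconv library lay above every naive library, with log2 fold changes of 2.77 (SE 0.23), 3.07, 3.16 and 2.79 in HP1a WT, HP1a KO, HP1g WT and HP1g KO. Its promoter was open in naive cells and was not called in any of the 4 comparisons. It measured 16.6 CPM per kb in naive cells and 17.1 in Tconv of HP1a WT (log2 fold change 0.02, adjusted p = 0.936), 15.5 and 19.8 in HP1a KO (0.26, adjusted p = 0.175), 13.1 and 17.3 in HP1g WT (0.40, adjusted p = 0.00393) and 12.9 and 16.9 in HP1g KO (0.38, adjusted p = 0.00664). Cdk1, the mitotic kinase, had 1 of 2 distal peaks higher in all 4 comparisons, and Cdk2 and Cdk4 had no distal peak.

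Among the mitotic genes, 13 of 20 distal peaks were called higher in HP1g WT and 1 lower (65% and 5%, against 28.6% and 24.8% of all distal peaks), with a median log2 fold change of 2.62 against 0.08. In HP1a WT, HP1a KO and HP1g KO, 55%, 60% and 55% were called higher and 0% lower. Over all distal peaks 29.2%, 26.3% and 25.4% were called higher there. Mki67 had 4 of 6 higher in all 4 comparisons, Bub1b, a spindle checkpoint kinase, 3 of 4, Top2a 2 of 3 and Kif11, a spindle motor, 1. The Mki67 peak at chr7:135314501-135315970 in an intron measured -1.54, 0.05 and -0.60 log2 CPM in HP1a WT naive cells and 3.20, 3.53 and 2.78 in Tconv. It gave log2 fold changes of 3.78 (SE 0.35), 3.47, 4.12 and 3.61. The Kif11 peak at chr19:37367081-37369640, 3.56 kb inside the gene, measured 0.16, 0.41 and 0.74 in HP1a WT naive cells and 3.81, 4.14 and 3.43 in Tconv, with log2 fold changes of 3.37 (SE 0.26), 3.04, 3.71 and 2.86. Neither peak had an overlap between naive and Tconv libraries.

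The licensing and helicase genes had 14 distal peaks, of which 4 were called higher in HP1g WT and 2 lower (28.6% and 14.3%, with 28.6% and 24.8% over all distal peaks). In HP1a WT, HP1a KO and HP1g KO, 28.6% were also called higher, with 0%, 7.14% and 14.3% lower. Mcm10, needed to start replication, had an intronic peak at chr2:5007651-5008480 that measured -0.81, -1.94 and -2.09 log2 CPM in HP1a WT naive cells and 2.15, 2.12 and 2.54 in Tconv, a log2 fold change of 3.98 (SE 0.37) in HP1a WT and of 4.45 (SE 0.42) in HP1g WT. Mcm6 had 2 of 4 distal peaks higher in all 4 comparisons and Cdt1 1 of 2. Cdc6 had a peak at chr11:98796001-98796710, inside an exon of its neighbour Wipf2, with log2 fold changes of -0.76 (adjusted p = 0.183, not called), -1.20, -2.09 and -1.53 in HP1a WT, HP1a KO, HP1g WT and HP1g KO.

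Among the CDK inhibitors, distal peaks of Cdkn1a and Cdkn2c were called higher. Of the 13 distal peaks of the inhibitors, 7 were called higher in HP1g WT and 0 lower (53.8% and 0%, against 28.6% and 24.8% of all distal peaks), 3 of 5 at Cdkn1a and 4 of 6 at Cdkn2c in all 4 comparisons, and 0 of 2 at Cdkn1b in any. In HP1a WT, HP1a KO and HP1g KO, 53.8%, 61.5% and 53.8% of the 13 were called higher and 0% lower. The largest log2 fold change among the member peaks, in each of the 4 comparisons, was 25.1 kb upstream of Cdkn1a at chr17:29283871-29285880, which measured -1.28, -1.42 and -0.57 log2 CPM in HP1a WT naive cells and 5.94, 5.19 and 5.22 in Tconv. In HP1a KO it measured -0.91, -0.89 and -1.10 in naive cells and 5.74, 5.90 and 5.09 in Tconv. In HP1g WT naive cells it measured -1.35, -2.18 and -1.73 and in Tconv 5.94, 6.19 and 6.15. In HP1g KO naive cells it measured 0.11, 0.19 and -1.11, and in Tconv 5.86, 5.79 and 6.19. All 12 naive libraries lay below all 12 Tconv libraries, with log2 fold changes of 6.62 (SE 0.31), 6.61, 8.0 and 6.31 in HP1a WT, HP1a KO, HP1g WT and HP1g KO.

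Distal peaks of the cyclins were called in both directions. In HP1g WT, 8 of the 46 were called higher and 11 lower (17.4% and 23.9%, against 28.6% and 24.8% of all distal peaks), with a median log2 fold change of -0.18. In HP1a WT the counts were 8 and 7 (17.4% and 15.2%, against 29.2% and 15.1%). The share called lower was thus close to that of all distal peaks in both WT comparisons, and was 17.4% in HP1a KO (against 18.5%) and 13% in HP1g KO (against 22.8%). Ccnd2 had 2 of 16 and Ccnd3 2 of 18 lower in all 4 comparisons, and Ccnb1, E2f2 and E2f3 had 1 each. The Ccnd2 peak 26.1 kb upstream at chr6:127154821-127155600 measured 3.22, 3.04 and 3.05 log2 CPM in HP1g WT naive cells and -1.15, -0.28 and 0.15 in Tconv. In HP1a WT it measured 2.87, 3.10 and 2.95 in naive cells and -0.46, 0.99 and 2.29 in Tconv. Naive and Tconv values did not overlap in either line, although the 3 HP1a WT Tconv libraries were widely spread, and the log2 fold changes were -1.96 (SE 0.49), -2.86, -3.51 and -2.99. The Ccnb1 peak at chr13:100941971-100942890, inside an intron of the neighbouring gene Slc30a5, measured 4.09, 4.13 and 4.05 in HP1g WT naive cells and 1.14, -0.06 and 0.36 in Tconv, with log2 fold changes of -2.46 (SE 0.37), -2.54, -3.55 and -2.87. Ccnd3 had intronic peaks that moved in both directions. The intronic peak at chr17:47829741-47831740 fell by 1.12, 1.49, 2.13 and 1.97 on the log2 scale, and that at chr17:47875220-47876340 gained 2.83, 2.88, 4.20 and 3.88. An E2f3 peak 57.3 kb upstream at chr13:30226661-30227970 had -1.57, -1.37, -1.54 and -1.94.

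The middle 300 bases of 4 of these distal peaks are shown on the plus strand of GRCm39, with the AP-1 letters TGANTCA in capitals on either strand. AP-1 (Fos and Jun) is the factor family best known for acting at sites opened in stimulated T cells. The first pair of peaks opened in Tconv, upstream of Cdkn1a at chr17:29284726-29285025 and in Ccnd3 at chr17:47875630-47875929. The next, near Ccnb1 at chr13:100942281-100942580, closed in Tconv, and the last, upstream of Ccnd2 at chr6:127193106-127193405, changed with Treg as described after this.
Cdkn1a upstream: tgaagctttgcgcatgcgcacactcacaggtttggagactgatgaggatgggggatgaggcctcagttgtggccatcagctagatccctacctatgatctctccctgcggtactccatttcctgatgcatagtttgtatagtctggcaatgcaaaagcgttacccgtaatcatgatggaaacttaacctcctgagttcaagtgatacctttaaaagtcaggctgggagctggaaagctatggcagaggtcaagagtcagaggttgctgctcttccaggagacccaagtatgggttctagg
Ccnd3 intron: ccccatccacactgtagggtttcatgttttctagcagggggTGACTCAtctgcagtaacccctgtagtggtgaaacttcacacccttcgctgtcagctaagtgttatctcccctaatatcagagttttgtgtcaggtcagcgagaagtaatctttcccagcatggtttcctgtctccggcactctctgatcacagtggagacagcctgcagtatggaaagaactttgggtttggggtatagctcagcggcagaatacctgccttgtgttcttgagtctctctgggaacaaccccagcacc
Ccnb1 upstream: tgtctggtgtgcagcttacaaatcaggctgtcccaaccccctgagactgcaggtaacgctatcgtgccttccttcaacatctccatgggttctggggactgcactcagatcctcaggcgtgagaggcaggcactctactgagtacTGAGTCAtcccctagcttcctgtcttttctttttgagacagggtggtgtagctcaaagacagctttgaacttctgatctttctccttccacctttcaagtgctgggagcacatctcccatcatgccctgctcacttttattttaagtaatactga
Ccnd2 upstream: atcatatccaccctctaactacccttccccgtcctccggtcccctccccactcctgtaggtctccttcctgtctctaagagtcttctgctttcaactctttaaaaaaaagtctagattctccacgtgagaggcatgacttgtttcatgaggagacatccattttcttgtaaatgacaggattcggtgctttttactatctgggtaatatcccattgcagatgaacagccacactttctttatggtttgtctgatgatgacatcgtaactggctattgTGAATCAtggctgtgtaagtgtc

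An AP-1 match was present in the middle of 13 of 60 distal peaks of the list that were called higher in HP1g WT Tconv (21.7%), in 1 of 16 called lower (6.25%) and in 4 of 67 not called (5.97%). Over all distal peaks the shares were 23%, 9.91% and 12.2%. The Cdkn1a window holds no match, while the Ccnb1 window that closed holds 1. In HP1a WT, 14 of 56 higher peaks of the list (25%) held a match, against 23.6% of all higher distal peaks. These shares are descriptions of letters and were not tested.

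Genes of the same pathway outside the list were counted in the same way in HP1g WT, where 10% of all promoter peaks were called higher and 8.87% lower. Of 25 other replication genes, 19 had a promoter peak, and 2 of 20 promoter peaks were called higher and 0 lower, while 15 of 44 distal peaks were called higher and 10 lower (34.1% and 22.7%, against 28.6% and 24.8% of all distal peaks). Of 20 other mitosis genes, 18 had a promoter peak, with 0 of 18 promoter peaks called and 22 of 53 distal peaks higher and 17 lower (41.5% and 32.1%). Of 15 other G1 control genes, 12 had a promoter peak, with 3 of 13 promoter peaks higher and 56 of 120 distal peaks higher and 17 lower (46.7% and 14.2%). Myc, a growth regulator, alone held 68 of those 120, with 27 higher and 14 lower (39.7% and 20.6%), and the other 52 had 29 higher and 3 lower (55.8% and 5.77%). In HP1a WT the distal counts were 15 higher and 7 lower for replication, 22 and 11 for mitosis and 56 and 11 for G1 control (all distal peaks 29.2% and 15.1%). The promoter counts there were 2, 0 and 2 higher with 0 lower (all promoter peaks 9.73% and 5.97%).

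The next question was whether the loss of either HP1 protein altered these regions. In naive cells, 0 of 187 peaks were called between HP1a KO and WT, with 1 at an unadjusted p below 0.05 (462 of all 71509 peaks) and 0 by DESeq2. Over all peaks 0.0014% were called higher and 0% lower. Here and in the comparisons that follow, counts at an unadjusted p or by DESeq2 are not read as results about the members. In HP1a Tconv, 0 were called, with 3 at an unadjusted p below 0.05 (2202 of all 71509 peaks) and 0 by DESeq2. Over all peaks 0.0014% were called higher and 0% lower there. The difference between HP1a KO and WT in the change from naive to Tconv was called at 0 member peaks, with 0% of all peaks called higher and 0% lower. At an unadjusted p below 0.05 were 2 member peaks (761 of all 71509 peaks), and DESeq2 called 0 member peaks. At the Cdkn1a peak 25.1 kb upstream, for example, the genotype difference in that change was -0.01 (SE 0.38), and at the Tyms promoter -0.18 (SE 0.23).

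For HP1g, 0 of 187 peaks were called in naive cells, although 6, all higher in KO, were called without KO naive replicate 3. At an unadjusted p below 0.05 were 17 (8382 of all 71508 peaks), and DESeq2 called 5. Over all peaks 0.579% were called higher and 0.0042% lower. In HP1g Tconv, 0 were called, while over all peaks 1.24% were called higher and 0.565% lower. There 17 had an unadjusted p below 0.05 (12569 of all 71508 peaks), and DESeq2 called 0. The genotype difference in the change from naive to Tconv was called at 0 member peaks (16 at an unadjusted p below 0.05, 3 by DESeq2; over all peaks 0.00979% higher and 0.00979% lower). At the Cdkn1a upstream peak it was -1.68 (SE 0.46, adjusted p = 0.138), and at the intronic Mki67 promoter peak -0.82 (SE 0.32, adjusted p = 0.317). A p above the threshold does not show that the genotypes were alike. The Treg marker Ikzf2 was higher in KO naive cells (65.01 to 77.59 CPM against 45.45 to 54.97) and in KO Tconv (49.24 to 57.6 against 31.53 to 44.17). Foxp3 was lower in KO naive cells (4.15 to 4.94 against 4.97 to 5.54) and overlapped in Tconv. The part of these markers was not tested.

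Exposure to Treg was then compared with Tconv alone in each genotype. In HP1a WT, 2 distal peaks were called higher, and 2 promoter and 5 distal peaks lower, which is 1.07% and 3.74% of the 187, against 3.95% and 3.55% of all peaks. The 2 fitted libraries with Treg had 12691169 and 1486053 reads in peaks. With log2 depth as a covariate most of these calls were lost, as given in the closing section. The higher peaks lay 64.1 kb (2.34, SE 0.49, adjusted p = 0.00746) and 5.36 kb (1.01, SE 0.31, adjusted p = 0.0448) from the TSS of Ccnd2. The lower peaks were at Aurkb and Birc5, of the chromosomal passenger complex of mitosis, at Cdkn1a and at Cdc6. The Birc5 promoter at chr11:117738671-117740707 measured 6.13, 5.93 and 5.71 log2 CPM in HP1a WT Tconv and 4.97 and 4.35 with Treg, a log2 fold change of -1.16 (SE 0.19, adjusted p = 0.00195). The Cdkn1a promoter over its first TSS measured 6.88, 6.58 and 5.95 in HP1a WT Tconv and 5.57 and 5.03 with Treg (-1.14, SE 0.23, adjusted p = 0.00638). In both cases the libraries with Treg lay below those without. Cdkn1a peaks 9.15 kb and 12.2 kb upstream gave -1.34 (SE 0.26) and -1.0, Aurkb peaks 5.01 kb and 8.64 kb upstream -1.14 (SE 0.22) and -1.22, and an exonic peak 8.43 kb from the TSS of Cdc6 at chr11:98807261-98807570 gave -2.13 (SE 0.57). The HP1a WT libraries with Treg also had the lowest CD4 T cell marker level, given above. Among the other markers, the Pax5 promoter measured 4.85 to 6.87 CPM in HP1a WT Tconv and 14.4 to 18.04 CPM with Treg, and the Cebpa promoter 17.9 to 23.8 CPM and 25.6 to 54.8 CPM, in ranges that include the library outside the fit and did not overlap. Ebf1, Cd14, Itgam, Foxp3 and Ikzf2 overlapped between these groups. The part of these levels in the results was not tested.

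The other genotypes had fewer calls with Treg. In HP1a KO, where 1 library remained, 0 peaks were called (4 at an unadjusted p below 0.05, 1 by DESeq2; 0% of all peaks higher and 0% lower). In HP1g WT, 0 were called, and 1 with the replicate numbers as a block. At an unadjusted p below 0.05 were 33 member peaks (15999 of all 71508 peaks), and DESeq2 called 1. Over all peaks 0.901% were called higher and 0.0587% lower. In HP1g KO, 2 distal peaks were called higher and 1 lower, against 3.08% and 1.62% of all peaks. The higher ones were the same Ccnd2 peak 64.1 kb upstream (1.70, SE 0.44, adjusted p = 0.0254) and a Cdk6 peak 32.7 kb from the TSS at chr5:3426361-3426860 (1.41, SE 0.42, adjusted p = 0.0459). In these libraries Pax5 measured 4.88 to 6.0 CPM in Tconv and 7.81 to 10.3 CPM with Treg, and Cebpa 20.4 to 26.6 CPM and 34.9 to 44.4 CPM, and their part was not tested. The lower one was a Ccnd3 peak 12.8 kb from the TSS at chr17:47828681-47829323 (-1.03, SE 0.30, adjusted p = 0.0447). The genotype difference in the Treg effect was called at 0 member peaks in HP1a (19 at an unadjusted p below 0.05, 0 by DESeq2; 0% of all peaks higher and 0% lower) and at 0 in HP1g (21 and 2; 0% and 0%). Without HP1a WT Tconv with Treg replicate 1, the deeper of its 2 libraries, 15 peaks were called in HP1a WT, 5 of them among the 9, and neither Ccnd2 peak was (1.09 and 0.67). The 3 HP1g KO calls became 0 without Tconv with Treg replicate 1 or without Tconv replicate 3. With loess offsets on mean abundance the split was 3 higher and 6 lower in HP1a WT and 3 and 0 in HP1g KO.

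KO and WT were also compared among Tconv exposed to Treg. In HP1a, the Birc5 promoter was called higher in KO (1.26, SE 0.24, adjusted p = 0.048) and 0 member peaks lower, against 0.105% and 0.035% of all peaks. The Birc5 promoter measured 6.06 log2 CPM in the fitted HP1a KO library, above the 2 WT libraries given before. That call was lost with all 18 HP1a libraries and without HP1a WT Tconv with Treg replicate 2, and without replicate 1 the count was 11. The CD4 T cell markers moved between the same groups, with a summed level of 317 CPM in the fitted KO library against 143 to 195 CPM in the fitted WT libraries. Over all 3 libraries of each group the sums overlapped (171 to 317 CPM and 109 to 195 CPM), while Thy1 did not (32.8 to 38.4 CPM in KO and 15.8 to 17.6 CPM in WT), nor did Pax5 (5.76 to 14.35 CPM and 14.4 to 18.04 CPM). Their part in the HP1a differences with Treg was not tested. In HP1g, 2 distal peaks were called higher in KO and 7 lower, which is 1.07% and 3.74% of the 187, against 4.8% and 5.92% of all peaks. Both higher peaks were upstream of Ccnd2. The peak 2.98 kb upstream of Cdt1, the licensing factor, at chr8:123291061-123292470 measured 3.62, 3.99 and 3.48 log2 CPM in HP1g WT with Treg and 2.13, 2.88 and 2.76 in KO, a log2 fold change of -1.09 (SE 0.22, adjusted p = 0.00379) with no overlap between the genotypes. A Ccnd3 intron peak 18.7 kb from the TSS at chr17:47834111-47835683 measured 2.2, 2.41 and 2.60 in WT and 1.27, 1.45 and 1.42 in KO, also without overlap (-1.04, SE 0.18, adjusted p = 0.00189). The other lower peaks were 12.8 kb from the TSS of Ccnd3 (-1.27, SE 0.31), 76.4 kb upstream of Cdk6 at chr5:3314951-3315310 (-1.68, SE 0.47), and 13.6 kb, 26.1 kb and 56.7 kb upstream of Ccnd2 (-1.05, -1.31 and -1.29). The Treg marker Ikzf2 measured 72.89 to 80.21 CPM in HP1g KO with Treg and 33.07 to 56.16 in WT. Foxp3 went the other way, with 1.86 to 2.17 CPM in KO and 2.23 to 2.56 in WT. B cell and myeloid levels of these groups are given below. The part of these markers in the HP1g calls was not tested.

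The split of the HP1g calls depended on the scaling. It was 6 higher and 3 lower with loess offsets on mean abundance, 6 and 4 with offsets on GC content, and 1 and 10 with library size alone. The 9 calls became 2 without KO Tconv with Treg replicate 1 and 4 without WT Tconv with Treg replicate 3.

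**Figure D3:**
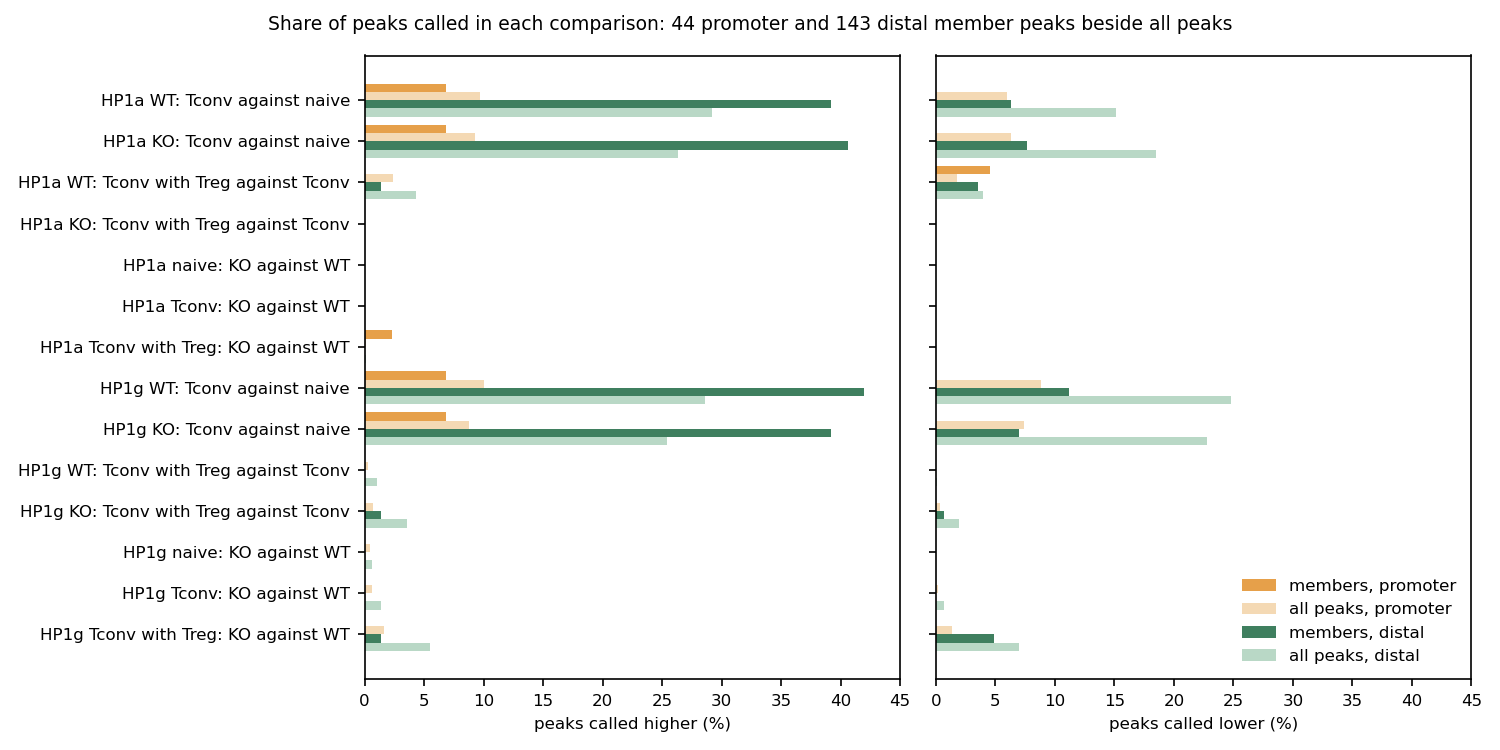
Percent of peaks called higher (left) and lower (right) on the horizontal axis in each comparison (vertical axis), with bars for the 44 promoter and 143 distal member peaks beside those for all promoter and all distal peaks. The longest bars are those of Tconv against naive cells, where 39.2% of the members' distal peaks were higher in HP1a WT, and the members' bars are 0 between KO and WT in naive cells and Tconv.

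The regions upstream of Ccnd2, which encodes the D-type cyclin induced in stimulated T cells, held peaks called between KO and WT with Treg in HP1g but not in HP1a. In HP1a, the peak 64.1 kb upstream was called for the effect of Treg in WT, a call lost without WT Tconv with Treg replicate 1. The peak 64.1 kb upstream at chr6:127192971-127193540 measured -0.51, 0.35 and 0.64 log2 CPM in HP1a WT Tconv and 2.85 and 1.20 in HP1a WT Tconv with Treg. It measured -0.23, -0.05 and 0.31 in HP1a KO Tconv and -0.45 in the 1 fitted HP1a KO library with Treg. The 3 libraries outside the fit measured 1.74 (WT with Treg), 1.76 and 0.19 (both KO with Treg), so that with them the KO and WT values overlap. In HP1g it measured 0.30, 0.06 and 0.30 in WT Tconv with Treg and 2.96, 0.95 and 2.44 in KO Tconv with Treg, against -0.54, -1.01 and 0.07 in WT Tconv and -0.28, 1.27 and 0.62 in KO Tconv. With Treg, all 3 HP1g KO libraries lay above the 3 WT libraries, whereas the fitted HP1a KO library lay below both WT libraries. The log2 fold change of KO over WT with Treg was -2.98 (SE 0.71, adjusted p = 0.0678, not called) in HP1a and 2.15 (SE 0.45, adjusted p = 0.00504, called) in HP1g. The HP1g call held without each of the 6 HP1g libraries with Treg in turn.

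A second Ccnd2 peak at chr6:127196151-127196750, 67.3 kb upstream, and a Cdk6 intron peak at chr5:3424621-3425590, 31.2 kb from the TSS, had the same signs. The second Ccnd2 peak measured 2.10 and 2.77 log2 CPM in HP1a WT Tconv with Treg and -0.58 in the fitted HP1a KO library, with 0.76 in the WT library and 1.51 and 1.33 in the KO libraries outside the fit. Its log2 fold change of KO over WT with Treg was -3.10 (SE 0.79, adjusted p = 0.0772) in HP1a and 1.25 (SE 0.43, adjusted p = 0.0492) in HP1g, where leaving out any of 5 of the 6 libraries with Treg ended the call. The Cdk6 peak measured 3.23 and 1.78 in HP1a WT with Treg and 1.48 in HP1a KO, and 1.54, 1.16 and 1.96 in HP1g WT with Treg and 3.77, 2.24 and 2.35 in HP1g KO. Its log2 fold changes were -1.41 (SE 0.61, adjusted p = 0.245) and 1.4 (SE 0.53, adjusted p = 0.0712), not called in either line. The summed B cell and myeloid marker levels moved in the same groups, with 22.6 CPM (B) and 45.1 to 66.0 CPM (myeloid) in the fitted HP1a WT libraries with Treg against 11.9 and 36.7 CPM in the KO library, and 15.2 to 19.2 and 44.6 to 54.6 CPM in HP1g KO with Treg against 9.37 to 12.5 and 26.0 to 34.4 CPM in WT. Within the myeloid list in HP1g with Treg, Cebpa was higher in KO (34.9 to 44.4 CPM against 13.0 to 21.4), Cd14 overlapped (8.75 to 10.04 against 7.99 to 10.7) and Itgam was lower (0.85 to 1.21 against 1.9 to 2.9). The Treg markers given above for HP1g with Treg split as well, with Ikzf2 higher and Foxp3 lower in KO. The part of all these marker levels in these results was not tested.

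**Figure D4:**
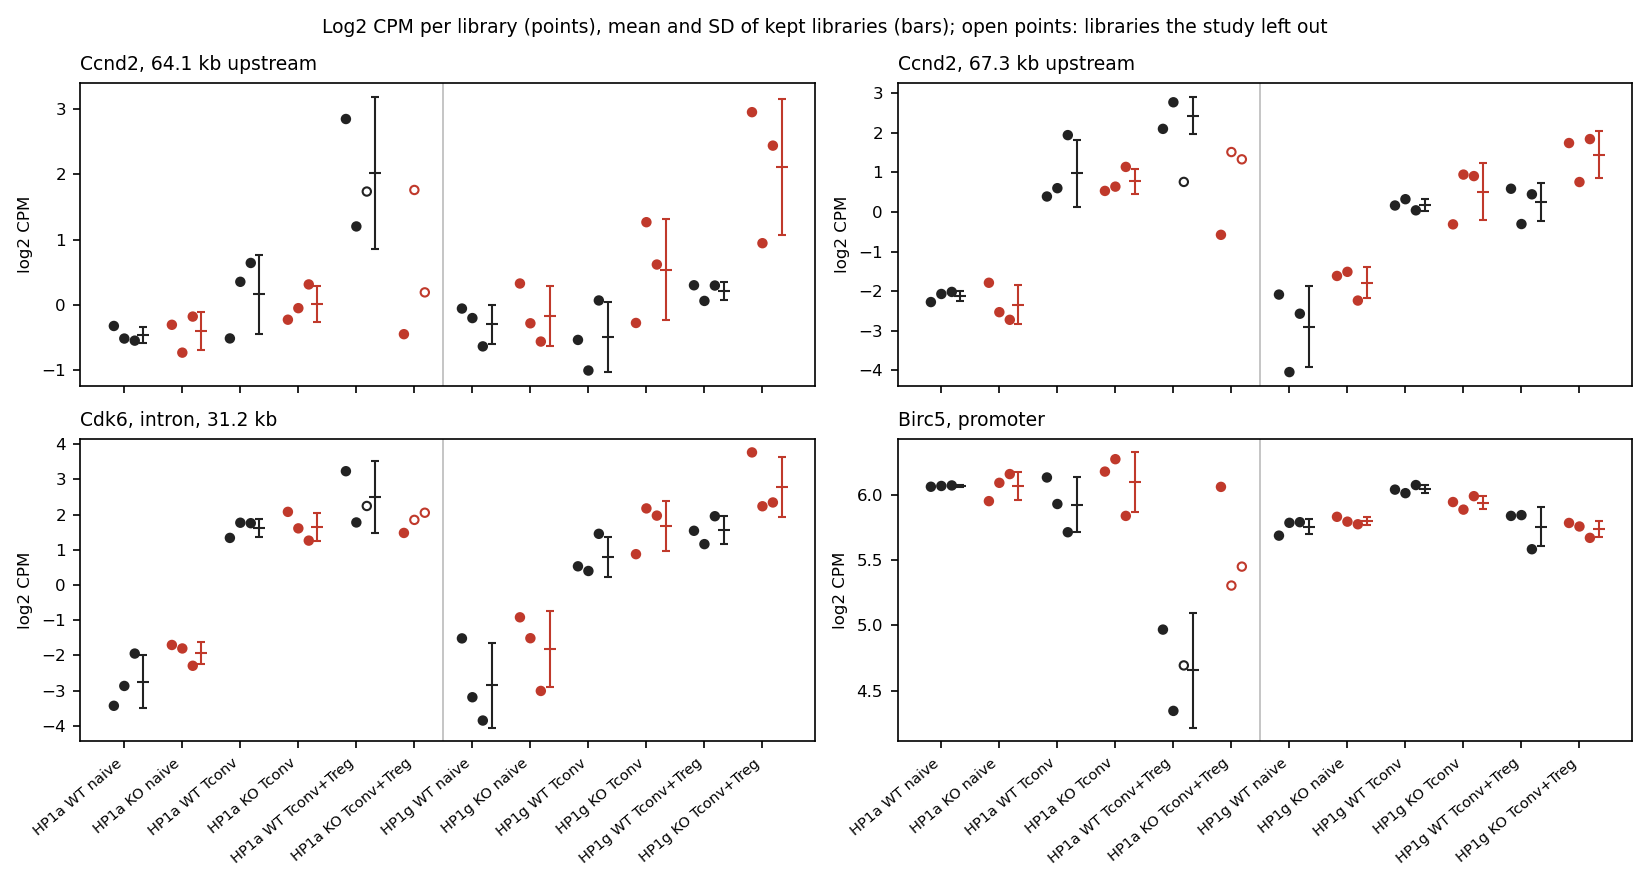
Log2 CPM (vertical axis) of every library at 4 member peaks, 1 panel each, by group (horizontal axis), with points for libraries (black WT, red KO, open for the 3 libraries that the study left out) and bars for the mean and SD of the kept libraries. At the Ccnd2 peaks the HP1g KO libraries with Treg lie above WT and the fitted HP1a KO library lies below the fitted WT libraries, while the open points lie between or among them.

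The difference between the HP1a and HP1g KO effects in Tconv with Treg was tested directly in a fit of the 33 kept libraries. The HP1a KO arm with Treg is 1 library, so that the SE and adjusted p here, and for HP1a KO against WT with Treg, take its spread from the other groups. It was called at 16 member peaks, 12 higher and 4 lower in HP1a than in HP1g (6.42% and 2.14% of the 187, against 7.43% and 6.59% of all peaks). The values were -5.09 (SE 0.88, adjusted p = 0.000584) and -4.27 (SE 0.91, adjusted p = 0.00273) at the Ccnd2 peaks 64.1 kb and 67.3 kb upstream, -2.76 (SE 0.95, adjusted p = 0.046) at the Cdk6 peak 31.2 kb from the TSS, and -1.24 (SE 0.41, adjusted p = 0.0378) at the Ccnd2 peak 5.36 kb from the TSS. Both upstream Ccnd2 peaks were also called with all 18 HP1a libraries (-3.77 and -2.44), and without each of the 8 kept libraries with Treg that could be left out in turn. The Cdk6 call was lost without HP1a WT Tconv with Treg replicate 1 (-1.74, adjusted p = 0.412), and without HP1g KO replicate 1 (-2.06), WT replicate 1 (-2.74) or WT replicate 2 (-2.58) with Treg, and with a replicate block over all groups (-2.73, adjusted p = 0.0541). The call at the Ccnd2 peak 5.36 kb from the TSS was lost with all 18 HP1a libraries (-0.95, adjusted p = 0.0748), and without HP1a WT replicate 1 (-0.97, adjusted p = 0.206), HP1g KO replicate 3 (-1.17, adjusted p = 0.0645) or HP1g WT replicate 1 (-1.08, adjusted p = 0.0749) with Treg.

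Mitotic and licensing genes and Cdkn1a were among the 12 higher peaks. The promoters of Birc5 (survivin) and Cdkn1a had differences of 1.35 (SE 0.21, adjusted p = 0.000234) and 1.42 (SE 0.27, adjusted p = 0.00113). An Aurkb peak 5.01 kb upstream at chr11:68929871-68933050 had 1.41 (SE 0.26, adjusted p = 0.000931), and measured 4.99 and 4.76 log2 CPM in HP1a WT with Treg and 6.28 in the fitted HP1a KO library, against 5.95, 6.06 and 6.0 in HP1g WT and 5.89, 6.04 and 6.07 in HP1g KO. The HP1g genotypes overlapped there. The intronic Mcm10 peak had 2.64 (SE 0.65, adjusted p = 0.00703), with 1.11 and 1.20 in HP1a WT and 2.82 in HP1a KO, and 2.29, 2.40 and 2.04 in HP1g WT and 0.63, 2.10 and 0.96 in HP1g KO, so that KO lay above WT in HP1a and the HP1g values overlapped. The remaining 8 lay at Ccnd3 (3 peaks), Cdt1, E2f2, Cdkn1a, Aurkb and Cdc6, with differences from 1.09 to 2.26. With all 18 HP1a libraries 5 of the 16 were called, among 12 in all, and the Aurkb peak then had 0.67 (adjusted p = 0.128) and the Birc5 promoter 0.91. Without HP1a WT Tconv with Treg replicate 1, 8 of the 16 were called, also among 16 in all. The Thy1, summed CD4 T cell marker and Pax5 levels given for HP1a KO and WT with Treg moved between the groups that these differences compare, and their part was not tested.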

How the data were processed

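ATAC-seq was analysed from the table of whole-number read counts per peak that the authors deposited for 36 libraries. Per the study's methods and processing notes, reads were trimmed with Trim Galore 0.6.7, aligned to GRCm39 with BWA-MEM, filtered for mapping quality, blacklisted regions and duplicates, peaks were called per library with HMMRATAC and merged with BEDTools, and reads were counted with featureCounts 2.0.3. No shift of reads for the Tn5 offset is stated, and reads could count for more than 1 overlapping peak.

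Peak midpoints were assigned to the nearest protein-coding TSS. Counts were filtered with filterByExpr, scaled by TMM and tested with edgeR 4.0.16 (glmQLFit, legacy=TRUE, and glmQLFTest), with all groups of a line in 1 fit (15 HP1a libraries, leaving out the 3 that the study left out, and 18 HP1g libraries). Calls required an adjusted p below 0.05 over all peaks and a log2 fold change beyond 1. Of 71512 intervals, 3 without width were left out. Log2 CPM used a prior count of 2, on library sizes scaled within a line. SE is the log2 fold change divided by the square root of F. The biological coefficient of variation was 26.6% in the HP1a fit and 22.2% in the HP1g fit.

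The test was checked on simulated counts under both quasi-likelihood methods of edgeR. The method of edgeR 4 (legacy=FALSE) was used at first, and the method of edgeR 3, the major version the study used, became the main one because it kept closer to the nominal error rate in the simulations. The counts of calls under both had been seen by then.

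All 43 members may be named, and distal or promoter peaks were named by rule, up to 5 in each direction per comparison with the smallest adjusted p. Other peaks named in the text were chosen after their values were seen. Cell marker and pathway lists are described in the text. The members and lists were chosen with earlier results of these data known. The test of the difference between lines was added after seeing the data.

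Replicate numbers in the labels were checked as a pairing. Same-numbered libraries deviated together (every correlation over 0.1) in HP1a naive KO and WT (0.24 to 0.49), HP1g KO and WT with Treg (0.15 to 0.32) and HP1g WT with and without Treg (0.20 to 0.29). Alternatives were library size alone, loess offsets on abundance or GC content (span 0.3), log2 depth as a covariate, no filter, DESeq2 1.42.0, only the groups compared, all 18 HP1a libraries, the replicate block, the quasi-likelihood method of edgeR 4, other assignments of peaks and each library left out. Sequences were read from the GRCm39 reference.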

Additional observations from a re-analysis of the deposited data

Results flagged for a closer look

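The KO effect in Tconv with Treg differed between the lines at 16 peaks, by the test of the difference itself (6.42% of the 187 higher and 2.14% lower, against 7.43% and 6.59% of all peaks). HP1a KO minus WT, less HP1g KO minus WT, was lower in HP1a on the log2 scale at Ccnd2 peaks at chr6:127192971-127193540 (-5.09), chr6:127196151-127196750 (-4.27) and chr6:127134171-127134860 (-1.24) and at the Cdk6 peak at chr5:3424621-3425590 (-2.76). It was higher at Mcm10 (chr2:5007651-5008480, 2.64), Cdc6 (chr11:98807261-98807570, 2.26), Aurkb (chr11:68926461-68929190, 1.52, and chr11:68929871-68933050, 1.41), Cdkn1a (chr17:29311971-29315500, 1.42, and chr17:29299691-29301870, 1.41), E2f2 (chr4:135890551-135891400, 1.36), Birc5 (chr11:117738671-117740707, 1.35), Cdt1 (chr8:123287351-123288850, 1.20) and Ccnd3 (chr17:47844109-47845620, 1.22, chr17:47910331-47912930, 1.20, and chr17:47831971-47833443, 1.09). The HP1a side rests on 1 KO library and 2 WT libraries. Without HP1a WT Tconv with Treg replicate 1 the values at the first 2 Ccnd2 peaks were -3.89 (adjusted p = 0.0446) and -4.72 (adjusted p = 0.00516), and 8 of the 16 were not called. Those 8 were the third Ccnd2 peak (-0.97, adjusted p = 0.206), the Cdk6 peak (-1.74, adjusted p = 0.412), the Mcm10 peak (2.50, adjusted p = 0.0707), Cdc6 (1.10, adjusted p = 0.455), E2f2 (0.72, adjusted p = 0.389), Cdt1 (1.57, adjusted p = 0.0554) and the Ccnd3 peaks at chr17:47844109-47845620 (0.90, adjusted p = 0.121) and chr17:47831971-47833443 (0.88, adjusted p = 0.0978). With all 18 HP1a libraries 11 of the 16 were not called, and the 5 called were the first 2 Ccnd2 peaks, the Cdk6 peak (-2.36), the Mcm10 peak (1.84) and the Ccnd3 peak at chr17:47844109-47845620 (1.02).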

How the results depend on the processing

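Of 345 counts of called member peaks under alternative settings, 298 stayed within 1.5 times the main count, and of 1232 values of named peaks 1107 kept their direction and call, 125 kept their direction without the call and 0 reversed. With the nearest TSS of any gene type, 102 peaks stayed with the list, and the calls were 29, 32, 33 and 32 for Tconv against naive in HP1a WT, HP1a KO, HP1g WT and HP1g KO (main 68, 72, 79 and 69), 4 and 1 for the Treg effect in HP1a WT and HP1g KO (9 and 3), 0 and 1 for KO against WT with Treg in HP1a and HP1g (1 and 9), and 7 for the difference between lines (16). Only peaks within 50 kb left 5 for HP1g KO against WT with Treg. Fewer peaks were counted in both by construction; the cause was not tested for the rest. With the edgeR 4 method, HP1a KO against WT with Treg had 5 calls and the Treg effect 1 in HP1a KO and 8 in HP1g KO. Library size alone gave 4 for HP1a KO against WT with Treg and 1 for the HP1g KO Treg effect. With depth as a covariate, the HP1a WT Treg effect had 3 calls, HP1a KO against WT with Treg 0 and HP1g KO against WT in Tconv 1. Offsets on GC content, only the groups compared and all 18 HP1a libraries each gave 0 for HP1a KO against WT with Treg. With only the groups compared, the HP1g KO Treg effect had 0 calls and HP1g KO against WT had 2 in naive cells and 3 with Treg. DESeq2 gave 9 for HP1a KO against WT with Treg, 1 for the Treg effect in HP1a KO and in HP1g WT, 5 in HP1g naive cells, and 3 and 2 for the HP1g interactions with activation and Treg. The replicate block gave 1 for the HP1g WT Treg effect, also with GC offsets. Where libraries share only a number, it gave 15 for the HP1a WT Treg effect and 1 for HP1g KO against WT in naive cells, and it moved no other count by over 1.5 times. A replicate block over all groups of a line, added after seeing the data, gave 2 for HP1a KO against WT with Treg (0 with all 18 HP1a libraries), 0 for the HP1a KO Treg effect with 15 or 18 libraries, 0 for the interactions and 18 for the difference between lines, with 15 of the 16 among them. Leaving out each library gave 60 to 82 for Tconv against naive cells, 6 to 15 for the HP1a WT Treg effect, 0 to 11 for HP1a KO against WT with Treg, 0 to 1 and 0 to 4 for the HP1g WT and KO Treg effects, 0 to 6 for HP1g KO against WT among naive cells, 0 to 1 among Tconv and 2 to 12 with Treg, 0 to 1 for the HP1g interaction with activation and 12 to 20 for the difference between lines. The single calls came without HP1g WT Tconv with Treg replicate 2, WT Tconv replicate 3 and KO naive replicate 3. The fitted HP1a group of KO cells with Treg is limited by having 1 library, and that of WT cells by 2 libraries of 12691169 and 1486053 reads.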
